A study of Mus musculus with 20 samples.

Results

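The collagen and laminin genes were followed in 2 mouse embryonic stem cell (ESC) lines as they were converted to epiblast stem cells (EpiSCs), the cultured counterpart of the epiblast after implantation. The set was defined by symbol alone, with no measured value: Col, a number, the letter a and a number, or Lama, Lamb or Lamc with 1 digit. It held 55 of the 23361 gene entries in the count tables, of which 44 were collagens and 11 were laminin chains. PGK is a female line and E14 is a male line. Day 0 cells were ESCs kept in 2i, a medium whose inhibitors hold ESCs in the naive state. All later groups were grown in N2B27 with activin A and Fgf2 on fibronectin, were first split with Accutase at day 4, and were then passaged every 2 days up to day 30. Each line was sampled at day 0, day 4, day 10, days 19 to 23 and days 27 to 30. Every one of these 10 groups had 2 libraries, one from each differentiation experiment, named diff2 and diff3, which gave 20 libraries of stranded mRNA. The later groups pool nearby days: for PGK they are days 23 and 29 in diff2 and days 21 and 29 in diff3, and for E14 days 21 and 27 in diff2 and days 19 and 30 in diff3. The labels name no transgene or targeted allele. With a single line per sex, a difference between the sexes and one between the lines cannot be told apart, and medium, coating and time cannot be told apart between day 0 and the later groups. Nothing in the labels says whether the experiments began from separate cultures, so a p-value here measures the spread between these libraries, which may be technical.

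Laminins and most collagens are secreted proteins built from entwined chains, and each chain is the product of its own gene. Laminins join 1 alpha, 1 beta and 1 gamma chain, and with the type IV collagen network they form the basement membrane, the sheet that lies under epithelia and on which the epiblast sits in the embryo. Fibrillar collagens, such as types I, II, III and V, form the fibres of connective tissue and are known mainly as products of mesenchymal cells.

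Values are in CPM, a library's count for a gene scaled to a fixed total per library, and pairs of values are always given for diff2 first and diff3 second. Library totals ran from 2020254 to 26936415 counts. The diff3 E14 libraries of day 0 and day 4 were the shallowest, with 3376500 and 2020254 counts, so that 3 counts correspond there to 0.888 and 1.48 CPM, against 0.111 to 0.253 CPM in the other 18. The naive markers (8 genes) summed to 4128 to 5720 CPM at day 0 and to at most 365 CPM at later stages. The primed markers (8 genes) summed to 99.1 to 146 CPM at day 0 and to at least 1658 CPM later. Because fibroblasts and extraembryonic endoderm also make these matrix genes, markers of both were summed. The 17 fibroblast and feeder markers summed to 9.18 to 40.8 CPM at day 0, 88.0 to 196 at day 4, 262 to 506 at day 10, 113 to 361 at days 19 to 23 and 263 to 358 at days 27 to 30. Tagln and Acta2, which many cell types share, were at no more than 1.12 and 0.149 CPM at day 0 and at 17.1 to 305 and 4.7 to 158 CPM later. Postn and Prrx1 were under 1 CPM at day 0 and reached 13.8 and 15.3 CPM (Postn) and 4.02 and 5.94 CPM (Prrx1) at days 27 to 30 in PGK, and 1.78 and 13.9 CPM (Postn) and 2.36 and 9.36 CPM (Prrx1) in E14. Fap, Tcf21 and Dpt were under 1 CPM in all 20 libraries, and 9 of the 17 genes (Dcn, Lum, Twist2, Fap, S100a4, Mgp, Lox, Tcf21 and Dpt) were under 5 CPM in all 20. The 16 extraembryonic endoderm markers summed to 252 to 480 CPM at day 0, at most 402 at day 4 and 748 to 1078 at day 10, and to 734 to 1465 CPM after that. Sparc, itself a basement membrane protein, led that sum at 131 to 998 CPM. Foxa2, Sox17, Gata6 and Gata4, transcription factors of endoderm, were at no more than 0.812, 1.7, 6.82 and 5.52 CPM at day 0 and at 54.4 to 67.4, 57.4 to 83.2, 44.6 to 83.1 and 41.05 to 83 CPM at days 27 to 30. Afp was under 1 CPM in all 20 libraries, and Sox7, Ttr, Thbd and Amn were under 5 CPM. The 8 neural markers summed to 52.3 to 93.3 CPM at day 0 and 133 to 684 CPM later, and the 8 endothelial markers to 98.03 to 283 CPM at day 0 and 1.93 to 51.6 CPM later. The fibroblast sum was therefore above its day 0 range from day 4 on, and the endoderm sum from day 10 on. Many collagens described here also rose after day 0, though not always at the same step. The part of such cells in the results was not tested. In these bulk samples, more or fewer cells of a type and more or less RNA per cell cannot be told apart.

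**Figure D1:**
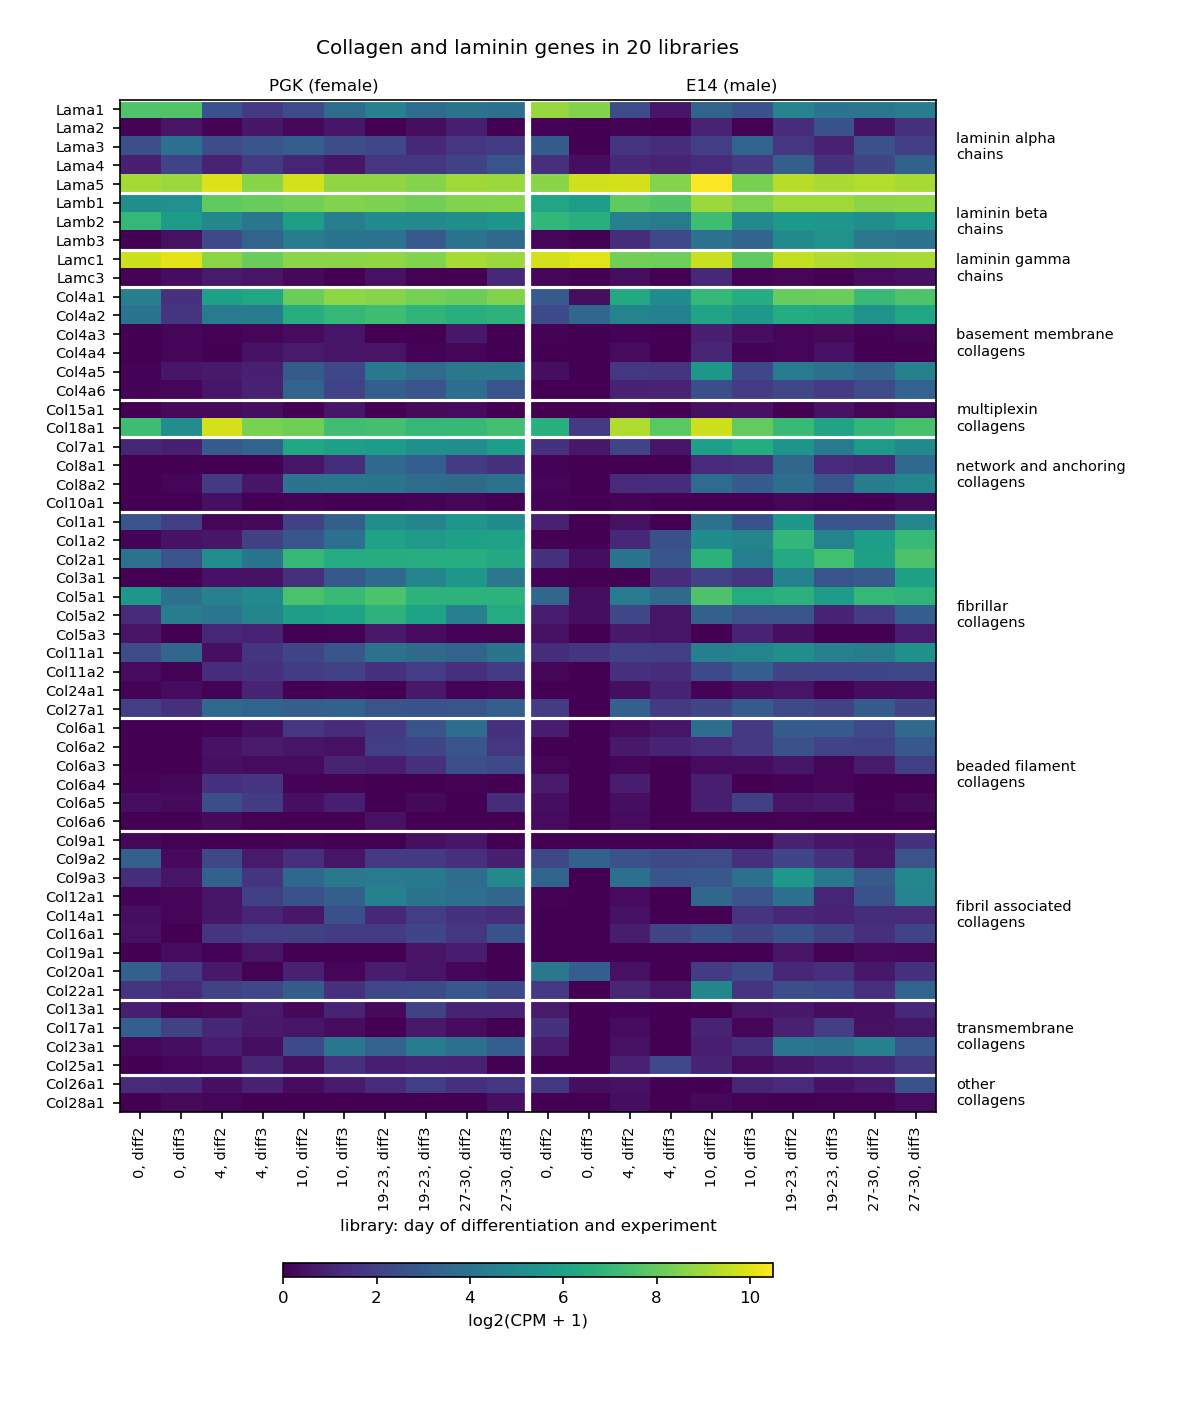
Level of 54 of the 55 collagen and laminin genes (rows, by class) in each of the 20 libraries (columns), as log2(CPM + 1). Brighter colour marks a higher level. The rows of Lama5 and Lamc1 are bright in every column, and that of Lamb1 is brighter from day 4. Most collagen rows are dark at day 0, and many are brighter from day 10.

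The members spanned a wide range of levels. By the highest group mean, 9 members stayed under 1 CPM (Col10a1, Col15a1, Col19a1, Col24a1, Col28a1, Col4a3, Col4a4, Col6a6 and Lamc3), 20 reached 1 to 10 CPM, 16 reached 10 to 100 CPM, and 10 reached 100 CPM or more (Col18a1, Col2a1, Col4a1, Col4a2, Col5a1, Lama1, Lama5, Lamb1, Lamb2 and Lamc1). Only members that passed the filter on low counts were tested. In PGK 50 passed, leaving out Col10a1, Col15a1, Col28a1, Col6a6 and Col9a1. In E14 46 passed, leaving out Col10a1, Col15a1, Col19a1, Col24a1, Col28a1, Col4a3, Col4a4, Col6a6 and Lamc3.

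Between day 0 and days 27 to 30, more members rose than fell in both lines. A member is said to have risen or fallen where edgeR's quasi-likelihood test gave a Benjamini-Hochberg adjusted p below 0.05 over all genes tested in that line. A p-value given below without another name is this adjusted p, and one given for a left-out library or the replicate block is that of the refit. In PGK, 22 of 50 tested members rose, among 13% of all 15284 genes tested, and 4 fell, among 12% of all genes. In E14, 19 of 46 rose, among 8.73% of all 14501 genes tested, and 1 fell, among 4.99%. The median fitted log2 change of the tested members was 1.99 in PGK, against −0.06 over all genes tested, and 3.94 in E14, against 0.19 over all genes. With members whose day 0 group had no count set at their lower bound, the E14 median was 3.11 and the PGK median remained 1.99. Members with few day 0 counts, such as Col3a1 in E14 with 1, kept their fitted values in all medians. Those values depend on the prior count. Of the members that rose, 20 in PGK and 17 in E14 were collagens, and 2 in each line were laminins. The median over collagen genes was 2.95 in PGK and 4.51 in E14 (3.88 with bounds), and that over laminin genes was −0.14 and −0.03. Of the members that rose, 17 were shared by the lines, which is 77.27% of the PGK list and 89.47% of the E14 list. The overlap of the lines over all called genes was not computed. These shares, and those for day 4 below, therefore have no background and are not read as a trait of the members. The 17 shared members were Lamb1, Lamb3, Col4a1, Col4a2, Col4a5, Col4a6, Col1a2, Col2a1, Col3a1, Col5a1, Col11a2, Col6a2, Col7a1, Col8a2, Col12a1, Col16a1 and Col23a1. Col1a1, Col6a1, Col6a3, Col8a1 and Col9a3 passed only in PGK, and Col11a1 and Col25a1 only in E14. Lama1 fell in both lines, and Lamc1 and Col20a1 were among those that fell in PGK. A call in a single line is not a tested difference between the lines. Leaving out each library in turn, 20 of 26 calls in PGK held in every case. In E14 9 of 20 did, and without the diff3 day 30 library only 9 members were called.

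**Figure D2:**
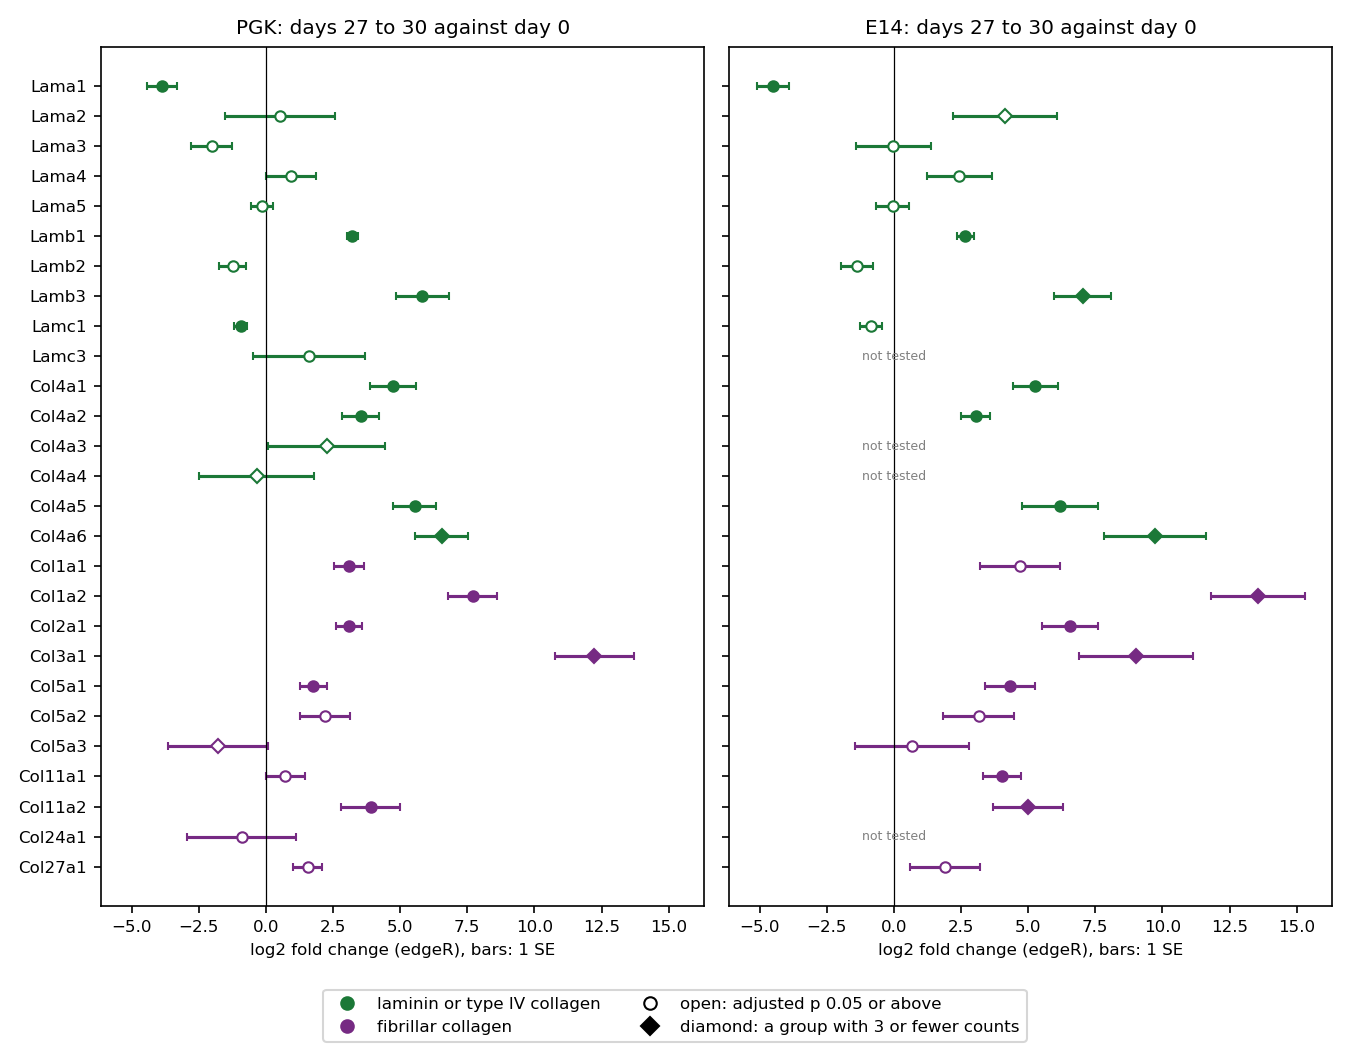
Fitted log2 fold change from day 0 to days 27 to 30 for 27 laminin, type IV and fibrillar collagen genes in each line, with bars of 1 standard error. Filled points have an adjusted p below 0.05 (edgeR), and diamonds mark genes with 3 or fewer counts in a group, whose fitted value depends on the prior count. Lama1 lies far to the left, Lamb1 and the type IV genes Col4a1, Col4a2, Col4a5 and Col4a6 to the right.

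The changes were spread unevenly over the stages. From day 0 to day 4, PGK had 8 members that rose, among 8.35% of all genes, and 4 that fell, among 6.44%. E14 had 6 that rose, among 5.16% of all genes, and 4 that fell, among 4.4%. The median fitted change over tested members was 1.31 in PGK (1.29 with bounds) and 0.81 in E14, against −0.01 and 0.15 over all genes. Lamb1 and Lamb3 rose in both lines at this step (25% of the PGK list and 33.33% of the E14 list), and Lama1, Lamb2 and Lamc1 fell in both (75% of each list). Only 6 of the 12 calls in PGK and 2 of the 10 in E14 held with each library left out in turn. The E14 count went down to 3 without either day 4 library, and to 6 without both shallow libraries. From day 4 to day 10, 4 members rose in PGK (Col7a1, Col1a1, Col5a1 and Col23a1), among 1.05% of all genes, and none fell, among 0.465%. That count was 0 without the diff2 day 4 library, 2 without the diff3 day 10 library, and 1 in the joint fit of both lines. In E14 edgeR called 0 members at this step, among 0.186% of all genes in either direction. There 17 members had an unadjusted p below 0.05, against 8.62% of all genes. DESeq2 called 11, against 392 higher and 128 lower over all genes. Without the diff3 day 10 library edgeR called 1. The median over tested members was 0.77 in PGK and 1.85 in E14 (1.83 with bounds), against −0.01 and 0.09 over all genes. From day 10 to days 27 to 30 edgeR called 0 members in PGK and 0 in E14, and also 0% of all genes in each. At that step 7 members in PGK and 6 in E14 had an unadjusted p below 0.05, against 3.507% and 4.234% of all genes. DESeq2 called 3 and 1 members, and over all genes 13 higher and 21 lower in PGK and 60 and 31 in E14. The titles of the diff2 libraries of days 0, 4 and 10 carry a library code, and those of the other libraries do not. Of the diff3 libraries at these stages, those of E14 at days 0 and 4 are the shallow ones. With only diff3 at those stages, whose lone libraries are assumed to vary like the other groups, 15 members were called by day 4, 12 from day 4 to day 10 and 25 from day 0 to days 27 to 30 in PGK, and 14, 4 and 29 in E14, against 12, 4 and 26 and 10, 0 and 20 with all libraries. Adding the replicate block, which pairs libraries of one experiment, gave 16 instead of 12 calls from day 0 to day 4 in PGK, 6 instead of 4 from day 4 to day 10, and 1 instead of 0 from day 4 to day 10 in E14.

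Among laminin alpha chains, Lama1 and Lama5 held nearly all of the level, and Lama1 fell to a few CPM by day 4. Lama1 encodes the alpha chain of the first laminin of the embryo, and Lama5 the alpha chain that is widespread in later basement membranes. Lama1 was at 196 and 197 CPM at day 0, 5.33 and 2.37 at day 4, 4.22 and 12 at day 10, 22.8 and 11.8 at days 19 to 23, and 15.2 and 13.5 at days 27 to 30 in PGK. E14 levels of Lama1 were 469.7 and 367 CPM at day 0, 4.27 and 0.495 at day 4, 9.23 and 5.24 at day 10, 25.1 and 15.1 at days 19 to 23, and 16.2 and 20.8 at days 27 to 30. Every day 0 library lay far above every later one, and the groups did not overlap. Day 4 was the lowest stage in 3 of the 4 series of libraries, the exception being diff2 of PGK, where it was day 10. From day 0 to day 4 Lama1 fell by 54.1-fold in PGK (log2 change −5.76 ± 0.61, edgeR adjusted p = 0.000267) and by 136-fold in E14 (−7.09 ± 0.70, adjusted p = 0.000528). Lama1 had 1 count in the diff3 E14 library of day 4, under the floor of 3 counts, which limits the E14 fold. Its change from day 0 to days 27 to 30 was smaller, −3.85 ± 0.55 in PGK (adjusted p = 0.000849) and −4.51 ± 0.60 in E14 (adjusted p = 0.00118). These calls held with each library left out in turn. Lama5 was at 542 and 484 CPM at day 0, 967 and 394 at day 4, 882 and 426 at day 10, 429 and 368 at days 19 to 23, and 505 and 479.8 at days 27 to 30 in PGK. E14 levels of Lama5 were 397 and 839 CPM at day 0, 907 and 367 at day 4, 1438 and 326 at day 10, 656 and 569 at days 19 to 23, and 623 and 554 at days 27 to 30. Its stages overlapped in both lines, and it passed the edgeR test in none of the within-line comparisons with all libraries. In diff3 of E14, whose libraries of days 0 and 4 are the shallow ones, Lama5 was lower at day 4 than at day 0 (367 against 839 CPM). In diff2 of E14 it was higher at day 4 (907 against 397 CPM). The diff2 E14 library of day 10 was the highest.

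Per exon length (CPM per kb of merged exons), Lama1 made up 29.6 and 31.6% of the alpha chain total at day 0 in PGK and 57.7 and 34% in E14. At day 4 its share was 0.64 and 0.689% in PGK and 0.549 and 0.157% in E14. The 0.157%, in the shallow diff3 library, rests on 1 count. By days 27 to 30 the share of Lama1 was 3.27% ± 0.165 in PGK and 3.53% ± 0.857 in E14 (SD, n = 2). Lama5 supplied most of the remainder, as the stacked plot of laminin chains shows. Lama3, the alpha chain of anchoring laminins in skin, ranged from 0 CPM in the diff3 E14 library of day 0 to 13.1 CPM in the diff3 PGK library of day 0, with no call by edgeR in either line. Its change to days 27 to 30 was called by DESeq2 in PGK (0.0199). Without the coded diff2 libraries edgeR called it in both lines, against a single day 0 library. In E14 that library is shallow and had 0 counts of Lama3. Lama4, known from vessel walls and muscle, did not go above 8.67 CPM, and Lama2, the muscle alpha chain, stayed at or under 1.48 CPM outside the diff3 E14 libraries of days 19 and 30 (5.26 and 1.83 CPM).

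**Figure D3:**
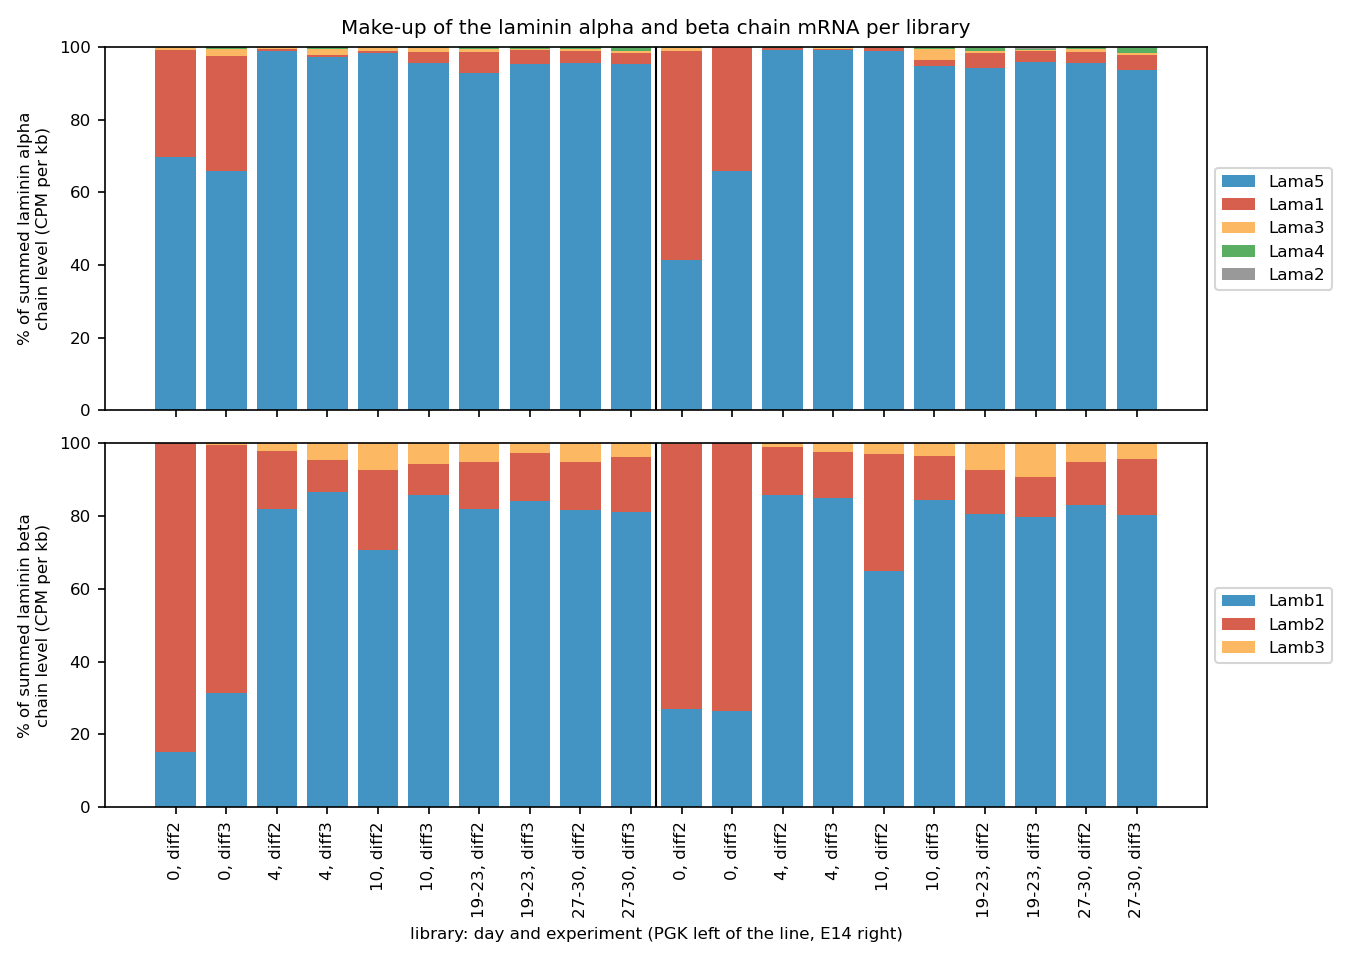
Share (%) of each alpha chain (top) and beta chain (bottom) in the summed CPM per kb of its kind, in every library. Lama1 holds between 29.6% and 57.7% of the alpha total at day 0 and at most 5.79% later, while Lamb1 goes from 15.1% to 31.3% of the beta total at day 0 to at least 64.8% later.

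Among beta chains Lamb2 had the larger level per exon length at day 0 and Lamb1 at every later stage. Lamb1 is the beta chain of the early embryonic laminins, and Lamb2 replaces it in basement membranes of kidney filter and neuromuscular junction. Lamb1 was at 36.1 and 38.9 CPM at day 0, 240.3 and 267 at day 4, 301 and 363 at day 10, 346 and 306 at days 19 to 23, and 364 and 374 at days 27 to 30 in PGK. E14 levels of Lamb1 were 73.4 and 56.9 CPM at day 0, 243 and 205 at day 4, 483 and 350.4 at day 10, 516 and 515 at days 19 to 23, and 407 and 420.4 at days 27 to 30. All day 0 libraries were below all later libraries of the line. Lamb1 rose by 6.47-fold by day 4 in PGK (log2 change 2.69 ± 0.21, edgeR adjusted p = 5.49e-05) and by 3.49-fold in E14 (1.8 ± 0.31, adjusted p = 0.00566). By days 27 to 30 the rise was 9.31-fold in PGK (3.22 ± 0.21, adjusted p = 1.85e-05) and 6.28-fold in E14 (2.65 ± 0.32, adjusted p = 0.000746), and all 4 calls held with each library left out. Lamb2 was at 125 and 51.9 CPM at day 0 and 28.5 and 16.3 at day 4 in PGK, and at 122 and 96.5 CPM, then 22.9 and 18.3 CPM, in E14. It fell by day 4 in both lines, by 4.13-fold (adjusted p = 0.025) and 5.19-fold (adjusted p = 0.0348). These 2 calls were lost in PGK without the diff2 day 0 library (0.147) or the diff3 day 4 library (0.156), and in E14 without the diff2 day 4 library (0.139) or the diff3 day 4 library (0.219). At days 27 to 30 Lamb2 was at 36.4 and 42.6 CPM in PGK and 35.7 and 49.6 CPM in E14. With all libraries that change from day 0 did not pass edgeR in PGK (adjusted p = 0.101) or in E14 (0.145). DESeq2 called it in PGK (adjusted p = 0.0456). Lamb1 was 23.2% ± 11.5 of the beta chain total per exon length at day 0 in PGK and 26.7% ± 0.267 in E14, and 81.4% ± 0.300 and 81.7% ± 1.91 at days 27 to 30 (SD, n = 2). The E14 day 0 share was 36.7% when the longest transcript was used as the length.

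Lamb3, the beta chain of the anchoring laminins, was close to absent at day 0, at 0 and 0.374 CPM in PGK and 0.149 and 0 CPM in E14. It reached 3.93 and 9.45 CPM at day 4 and 15.2 and 11.5 at days 27 to 30 in PGK, and 1.62 and 3.96 CPM, then 16.7 and 14.8 CPM, at those stages in E14. It rose in both lines at day 4 (edgeR adjusted p = 0.0073 and 0.0254) and at days 27 to 30 (0.00209 and 0.00231), although the E14 call of day 4 was lost without the diff3 day 4 library (0.101). Of these, the E14 folds rest on 2 counts at day 0 and are given as levels only.

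Lamc1, the gamma chain of most laminins, was the main gamma chain at every stage, with 83.3% to 99.5% of the gamma total per exon length. It was at 824 and 1060.5 CPM at day 0, 403 and 279 at day 4, 411 and 406 at day 10, 430.5 and 360.3 at days 19 to 23, and 556 and 481 at days 27 to 30 in PGK. E14 levels of Lamc1 were 906 and 1018 CPM at day 0, 302 and 289 at day 4, 771 and 245 at day 10, 733 and 599 at days 19 to 23, and 517 and 549.9 at days 27 to 30. Day 0 was above every later stage in both lines. From day 0 to day 4 Lamc1 fell by 2.89-fold in PGK (log2 change −1.53 ± 0.23, edgeR adjusted p = 0.00185) and by 3.19-fold in E14 (−1.67 ± 0.43, adjusted p = 0.0368). The E14 call was lost without the diff2 day 4 (0.149), diff3 day 0 (0.0716) or diff3 day 4 library (0.208). At days 27 to 30 it was still lower in PGK (−0.94, adjusted p = 0.0143), a call lost without either late library (0.0508 for diff2 and 0.112 for diff3) or the diff3 day 0 library (0.0589). It did not pass in E14 with all libraries (adjusted p = 0.21). Lamc3 stayed at or under 1.33 CPM. From day 0 to day 4 the chains Lama1 and Lamc1 fell in both lines while Lamb1 rose.

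**Figure D4:**
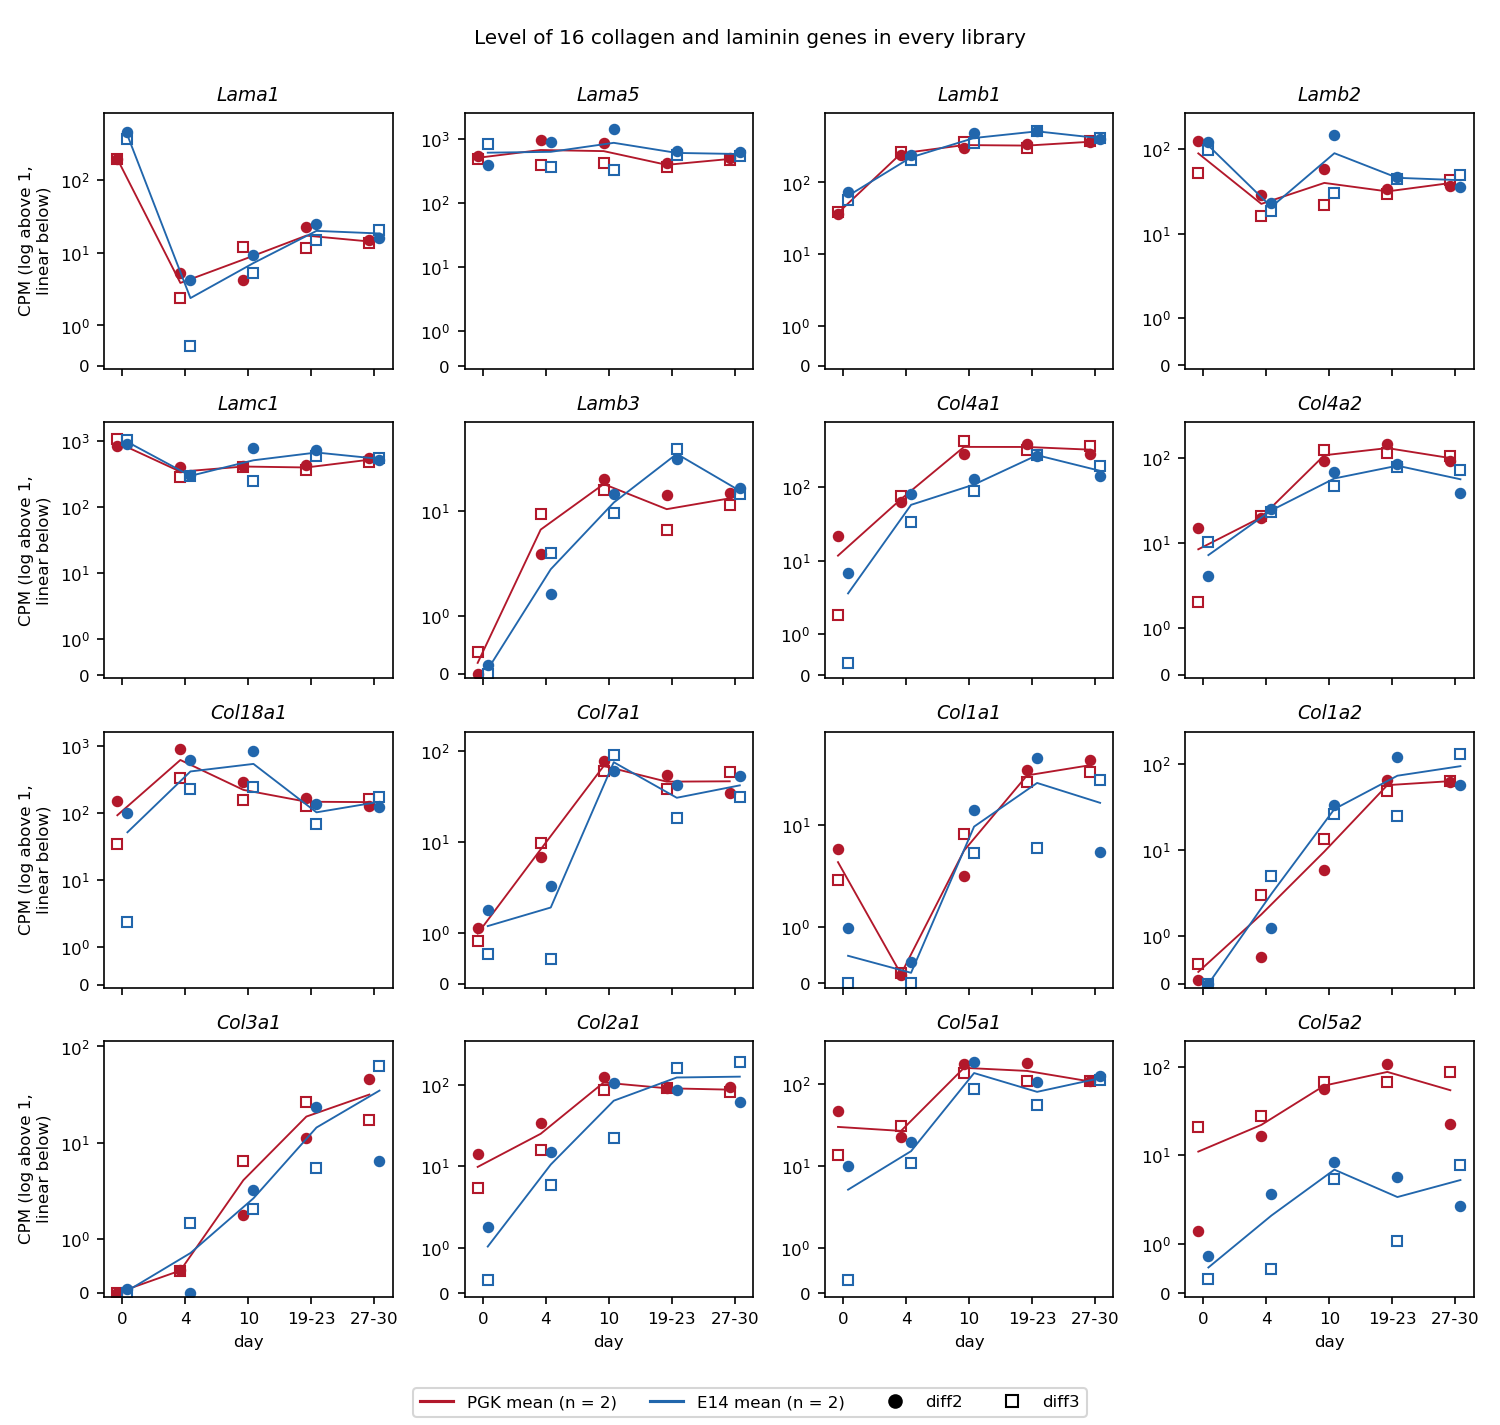
CPM of 16 members at the 5 stages in PGK and E14, on an axis that is linear near 0 and logarithmic above. Circles are diff2, open squares diff3, and lines join the means (n = 2). Lama1 drops at day 4, Lamb1 climbs, and Col1a2 and Col3a1 lie at the bottom of the axis at day 0 and climb at later stages.

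The type IV collagen genes lie in head to head pairs, and the 4 genes of the pairs Col4a1 with Col4a2 and Col4a5 with Col4a6 all rose by days 27 to 30 in both lines. Col4a1 and Col4a2 encode the chains of the type IV network found in nearly all basement membranes. On mouse chromosome 8 (RefSeq, GRCm38.p6) their start sites are 21 bases apart, at 11312826 on the minus strand and 11312805 on the plus strand. Their promoter windows, from 250 bases before to 50 after the start site, are shown because the pair changed together, and the 2 windows share 78 bases. They lie at chr8:11312777-11313076 (minus strand, Col4a1) and chr8:11312555-11312854 (plus strand, Col4a2). Capitals mark the TATA box in its usual letters TATAAA, the CCAAT box by its own letters, and the GC box in its letters GGGCGG, each on either strand. Each sequence is written 5′ to 3′ on the gene's strand.
Col4a1: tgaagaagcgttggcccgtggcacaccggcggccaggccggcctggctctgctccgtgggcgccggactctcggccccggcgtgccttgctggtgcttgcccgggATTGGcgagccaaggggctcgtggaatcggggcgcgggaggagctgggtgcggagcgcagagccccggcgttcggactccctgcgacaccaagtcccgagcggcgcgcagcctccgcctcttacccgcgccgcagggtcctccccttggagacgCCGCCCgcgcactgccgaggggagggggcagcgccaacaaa
Col4a2: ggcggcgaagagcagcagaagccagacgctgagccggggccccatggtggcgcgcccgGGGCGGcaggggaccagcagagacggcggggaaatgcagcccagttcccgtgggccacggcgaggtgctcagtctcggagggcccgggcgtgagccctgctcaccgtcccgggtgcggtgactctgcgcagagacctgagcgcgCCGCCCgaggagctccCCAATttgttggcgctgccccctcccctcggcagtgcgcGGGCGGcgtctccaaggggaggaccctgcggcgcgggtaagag
Over the 44 windows that 40 of the 55 members have in this table, the TATA box was in 11.36%, the CCAAT box in 31.82% and the GC box in 59.09%, against 13.62%, 37.41% and 35.66% of all 32851 windows. None of the 11 windows of type IV collagens and laminins held the TATA box, and 7 held the GC box. These matches describe the letters in the windows and nothing further. Both strands were searched, and neighbouring matches of different motifs can share their end bases.

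Col4a1 was at 21.5 and 1.82 CPM at day 0, 61.6 and 75 at day 4, 281 and 419 at day 10, 385 and 314 at days 19 to 23, and 278 and 364 at days 27 to 30 in PGK. E14 levels of Col4a1 were 6.86 and 0.296 CPM at day 0, 81.1 and 33.2 at day 4, 127 and 88.4 at day 10, 267 and 273 at days 19 to 23, and 139 and 192 at days 27 to 30. In each line all day 0 libraries were below all later ones, and in PGK the stages from day 10 on overlapped. The diff2 day 0 library of PGK stood above that of diff3. Col4a1 rose in E14 by day 4, by 13.8-fold (log2 change 3.79 ± 0.80, edgeR adjusted p = 0.0152), no longer called without the diff2 day 4 library (0.102). In PGK the same step did not pass (2.52, adjusted p = 0.0539), nor did day 4 to day 10 (2.33, adjusted p = 0.207). With diff3 alone at days 0, 4 and 10, which leaves 1 library in each of these groups, both steps passed in PGK. By days 27 to 30 Col4a1 had risen in PGK (4.74, adjusted p = 0.00284) and by 38.6-fold in E14 (5.27 ± 0.85, adjusted p = 0.00324), and both calls held with each library left out.

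Col4a2 was at 14.9 and 2.01 CPM at day 0, 19.6 and 20.8 at day 4, 92.6 and 126 at day 10, 148 and 117 at days 19 to 23, and 93.9 and 108 at days 27 to 30 in PGK. E14 levels of Col4a2 were 4.03 and 10.4 CPM at day 0, 25.4 and 23.3 at day 4, 68.4 and 47.7 at day 10, 85.6 and 78.5 at days 19 to 23, and 39.5 and 74 at days 27 to 30. Day 0 was the lowest stage in both experiments of both lines, as for Col4a1. Col4a2 rose by day 4 in E14 (3.63-fold, log2 change 1.86 ± 0.52, edgeR adjusted p = 0.0478), no longer called without the diff2 day 0, diff2 day 4 or diff3 day 4 library. It did not pass by day 4 in PGK (adjusted p = 0.233), and passed with diff3 alone at the early stages, 1 library a group. By days 27 to 30 it had risen in PGK (3.54, adjusted p = 0.00455) and by 8.22-fold in E14 (3.04 ± 0.53, adjusted p = 0.00492). The E14 call was lost without the diff3 day 30 library (0.0513).

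Col4a5 and Col4a6 encode the chains of a rarer type IV network, known from smooth muscle. They lie head to head on the X chromosome with start sites 1343 bases apart. Col4a5 was at 0.0812 and 0.561 CPM at day 0, 0.631 and 0.913 at day 4, 6.75 and 3.82 at day 10, 18 and 11.6 at days 19 to 23, and 17.4 and 17.4 at days 27 to 30 in PGK. E14 levels of Col4a5 were 0.298 and 0 CPM at day 0, 2.28 and 1.98 at day 4, 45.6 and 3.83 at day 10, 18.5 and 13.1 at days 19 to 23, and 9.66 and 22.7 at days 27 to 30. Col4a6 was at 0.0812 and 0.0935 CPM at day 0 and 13 and 5.66 at days 27 to 30 in PGK, and at 0 CPM in both, then 4.28 and 8.96 CPM, in E14. Both were at or under 1 CPM in all day 0 libraries and above 2 CPM in all libraries from day 10 on. Col4a5 rose 46.6-fold by days 27 to 30 in PGK (log2 change 5.54 ± 0.81, edgeR adjusted p = 0.000936) and also rose in E14 (adjusted p = 0.0176). Col4a6 rose in both (0.00112 in PGK and 0.0101 in E14, at least 37-fold in E14 with its day 0 group at 0 counts, against a floor of 3 counts over the group). Both E14 calls were lost without the diff3 day 30 library (0.0779 for Col4a5 and 0.0611 for Col4a6). Col4a3 and Col4a4, the remaining pair, stayed at or under 0.915 and 1.16 CPM in all libraries. Col4a5 and Col4a6 are X-linked, and PGK is female and E14 male. Neither gene passed the test between the lines at day 0 or at days 27 to 30.

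Other collagens tied to the basement membrane zone had their own courses. Col18a1, whose product carries endostatin at its end and sits in basement membranes, was at 151 and 34.8 CPM at day 0, 906 and 331 at day 4, 289 and 155 at day 10, 169 and 127 at days 19 to 23, and 129.6 and 162 at days 27 to 30 in PGK. E14 levels of Col18a1 were 101 and 2.37 CPM at day 0, 609.5 and 225 at day 4, 835 and 247 at day 10, 136 and 69.5 at days 19 to 23, and 122 and 173 at days 27 to 30. In each experiment of both lines the peak was at day 4 or day 10. Col18a1 rose 6.36-fold by day 4 in PGK (log2 change 2.67 ± 0.66, edgeR adjusted p = 0.0216), no longer called without the diff2 day 4 (0.105) or diff3 day 0 library (0.0581), and did not pass in E14 (2.96, adjusted p = 0.141). In diff3 of E14 this step ran from 8 to 455 counts, in the 2 shallow libraries. Col7a1, which forms the anchoring fibrils below epithelia, was at 1.14 and 0.842 CPM at day 0, 6.8 and 9.73 at day 4, 76.1 and 59.6 at day 10, 53.6 and 37.8 at days 19 to 23, and 34.3 and 57.9 at days 27 to 30 in PGK. E14 levels of Col7a1 were 1.79 and 0.592 CPM at day 0, 3.31 and 0.495 at day 4, 59.7 and 89.6 at day 10, 42.4 and 18.4 at days 19 to 23, and 52.1 and 31.1 at days 27 to 30. The day 10 and later libraries were all above 18 CPM and the day 0 and day 4 libraries all under 10 CPM. Col7a1 rose in PGK at both early steps, by 3.02 ± 0.43 to day 4 (adjusted p = 0.00119) and by 3.0 ± 0.39 to day 10 (adjusted p = 0.00769, 0.0505 without the diff2 day 4 library), both as log2 changes in edgeR. In E14 the day 10 step was 5.04 (adjusted p = 0.0558), which passed with the replicate block (0.0246). By days 27 to 30 it had risen 44.6-fold in PGK (adjusted p = 4.88e-05) and 30.6-fold in E14 (adjusted p = 0.00505).

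Col8a1 and Col8a2 encode the chains of the hexagonal network known from the cornea. Col8a2 was at 0 and 0.0935 CPM at day 0, 14.9 and 16.5 at day 10 and 11.4 and 14.3 at days 27 to 30 in PGK, and at 0.149 and 0 CPM, then 11.6 and 7 CPM, then 20.2 and 28.7 CPM, in E14. It rose by days 27 to 30 in both lines (edgeR adjusted p = 0.000589 and 0.00264), both day 0 groups having 2 counts. It had also risen by day 4 in PGK, to 2.45 and 0.548 CPM (0.014), a call lost without either diff2 library (0.0504 at day 0 and 0.0643 at day 4). From day 4 to day 10 it did not pass in PGK (0.0591), and passed with the replicate block (0.0389). Col8a1 had 0 counts at days 0 and 4 in PGK, was at 11 and 7.72 CPM at days 19 to 23 and at 2.56 and 1.84 at days 27 to 30, at least 24.7-fold above day 0 (adjusted p = 0.00693). In E14 it did not pass (0.0503).

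Of the fibrillar collagens, 5 rose by days 27 to 30 in both lines (Col1a2, Col2a1, Col3a1, Col5a1 and Col11a2). Of 11 tested in PGK, 1 rose by day 4 (Col27a1) and 1 fell (Col1a1), 2 rose from day 4 to day 10 (Col1a1 and Col5a1), and 6 rose from day 0 to days 27 to 30 (Col1a2, Col3a1, Col2a1, Col1a1, Col5a1 and Col11a2). Of all genes in PGK, 8.35% rose and 6.44% fell by day 4, 1.05% rose from day 4 to day 10, and 13% rose by days 27 to 30. Of 10 tested in E14, 1 rose by day 4 (Col1a2) and 6 rose by days 27 to 30 (Col1a2, Col2a1, Col11a1, Col5a1, Col3a1 and Col11a2), among 5.16% and 8.73% of all genes. From day 4 to day 10 edgeR called 0 of the 10 in E14 and DESeq2 called 4. An unadjusted p below 0.05 was found for 5 of them, against 8.62% of all genes. The median fitted change from day 0 to days 27 to 30 was 2.20 in PGK and 4.51 in E14. The promoter windows of Col1a2 and Col3a1, the markers given for these genes, are shown because both genes went from under 0.5 CPM in all 4 day 0 libraries to 6.54 CPM or more in all 4 libraries of days 27 to 30. They lie at chr6:4505368-4505667 and chr1:45311288-45311587, both on the plus strand (RefSeq, GRCm38.p6), with the same motifs in capitals.
Col1a2: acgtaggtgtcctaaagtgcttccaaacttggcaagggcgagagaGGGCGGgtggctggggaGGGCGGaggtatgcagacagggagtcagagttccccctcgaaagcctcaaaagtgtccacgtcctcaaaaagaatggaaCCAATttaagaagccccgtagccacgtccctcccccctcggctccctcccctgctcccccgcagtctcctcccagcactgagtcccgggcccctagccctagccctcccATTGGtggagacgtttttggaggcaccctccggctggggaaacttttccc
Col3a1: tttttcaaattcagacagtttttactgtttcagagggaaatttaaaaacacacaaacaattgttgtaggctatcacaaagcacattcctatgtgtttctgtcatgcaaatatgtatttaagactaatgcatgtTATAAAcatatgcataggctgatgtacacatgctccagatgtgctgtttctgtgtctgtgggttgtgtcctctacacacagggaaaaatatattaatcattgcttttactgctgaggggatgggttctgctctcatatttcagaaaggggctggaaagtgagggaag
Of the 8 windows of fibrillar collagens in the table, 2 held the TATA box, 3 the CCAAT box and 6 the GC box, with the same limits as above.

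Col1a2 and Col1a1 encode the chains of type I collagen, the main protein of bone and skin. Col1a2 was at 0.0812 and 0.421 CPM at day 0, 0.561 and 3.01 at day 4, 5.91 and 13.3 at day 10, 64.7 and 49.2 at days 19 to 23, and 62.7 and 64.1 at days 27 to 30 in PGK. E14 levels of Col1a2 were 0 and 0 CPM at day 0, 1.25 and 4.95 at day 4, 33.4 and 26.6 at day 10, 122 and 25.1 at days 19 to 23, and 57.1 and 132 at days 27 to 30. Levels at days 19 to 23 and 27 to 30 were above those of days 0 and 4 in every library. Col1a2 rose 208-fold from day 0 to days 27 to 30 in PGK (log2 change 7.70 ± 0.91, edgeR adjusted p = 0.000278), with 10 counts in the day 0 group, and at least 529.7-fold in E14 (adjusted p = 0.00128), where the day 0 group had 0 counts. Both calls held with each library left out. At day 4 it had risen at least 17.3-fold in E14 (adjusted p = 0.035), a call lost without any one of the 4 libraries (0.0553 to 0.146). At that step it did not pass in PGK (0.0675), where it passed with the replicate block (0.0412).

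Col1a1 was at 5.76 and 2.85 CPM at day 0, 0.14 and 0.183 at day 4, 3.12 and 8.06 at day 10, 35 and 26.4 at days 19 to 23, and 43.9 and 33.4 at days 27 to 30 in PGK. E14 levels of Col1a1 were 0.97 and 0 CPM at day 0, 0.368 and 0 at day 4, 14 and 5.28 at day 10, 45.8 and 5.93 at days 19 to 23, and 5.38 and 27.6 at days 27 to 30. In both PGK experiments and in diff2 of E14 its lowest stage was day 4 rather than day 0, and the PGK libraries after day 10 were its highest in that line. The E14 libraries after day 10 spread widely. In PGK it fell 26.1-fold by day 4 (log2 change −4.71 ± 0.70, edgeR adjusted p = 0.00157) and rose again by 5.02 ± 0.70 by day 10 (adjusted p = 0.00963, 0.0615 without the diff2 day 4 library). The PGK day 4 libraries had 2 and 4 counts of Col1a1, so both of these changes rest on few counts. By days 27 to 30 Col1a1 had risen over day 0 in PGK (edgeR adjusted p = 0.00308). In E14 it did not pass (adjusted p = 0.0604), and passed with the replicate block (0.0438). The last step in PGK, from day 10 to days 27 to 30, had log2 changes of 2.78 ± 0.55 for Col1a1, 2.71 ± 0.67 for Col1a2 and 2.93 ± 0.78 for Col3a1. All 3 had an adjusted p of 1 in edgeR and of 0.00118, 0.0185 and 0.0499 in DESeq2.

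Col3a1, the chain of type III collagen found beside type I in soft tissues, was at 0 and 0 CPM at day 0, 0.421 and 0.411 at day 4, 1.77 and 6.43 at day 10, 11.1 and 26.4 at days 19 to 23, and 46.3 and 17.1 at days 27 to 30 in PGK. E14 levels of Col3a1 were 0.0746 and 0 CPM at day 0, 0 and 1.48 at day 4, 3.24 and 2.07 at day 10, 23.3 and 5.52 at days 19 to 23, and 6.54 and 63.2 at days 27 to 30. The spread at the last stage was wide in both lines, and the diff3 E14 library of day 30 was the highest of all. Col3a1 rose at least 356-fold from day 0 to days 27 to 30 in PGK (edgeR adjusted p = 0.000485). It also rose in E14 (adjusted p = 0.0199), where day 0 had 1 count, and that call was lost without the diff3 day 30 library (0.131).

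Col5a1 and Col5a2 encode the chains of type V collagen, which starts fibrils and sets their width. Col5a1 was at 46.4 and 13.7 CPM at day 0, 22.7 and 31.1 at day 4, 178 and 138 at day 10, 182 and 108 at days 19 to 23, and 108 and 108 at days 27 to 30 in PGK. E14 levels of Col5a1 were 10.0 and 0.296 CPM at day 0, 19.5 and 10.9 at day 4, 186 and 86.7 at day 10, 106 and 55.1 at days 19 to 23, and 125 and 112 at days 27 to 30. Days 0 and 4 were below day 10 and later in every library. From day 4 to day 10 Col5a1 rose by 2.52 ± 0.50 on the log2 scale in PGK (edgeR adjusted p = 0.0393), a call lost without any one of the 4 libraries (0.0739 to 0.225). It was higher at days 27 to 30 than at day 0 in PGK (1.77, adjusted p = 0.0239, 0.0708 and 0.0876 without the diff2 or diff3 late library) and in E14 (4.32, adjusted p = 0.0137). Col5a2 was at 1.38 and 20.6 CPM at day 0, 16.6 and 27.4 at day 4, 56 and 66.2 at day 10, 108 and 66.4 at days 19 to 23, and 22.5 and 85.9 at days 27 to 30 in PGK. E14 levels of Col5a2 were 0.746 and 0.296 CPM at day 0, 3.68 and 0.495 at day 4, 8.32 and 5.44 at day 10, 5.68 and 1.07 at days 19 to 23, and 2.69 and 7.82 at days 27 to 30. At each stage both PGK libraries were above both E14 libraries, a difference tested between the lines further on. It passed the edgeR test in no within-line comparison, while DESeq2 called it in E14 by days 27 to 30 (0.039). Per exon length Col5a2 was 5.44% to 37.2% of the fibrillar total in 9 PGK libraries (1.65% in diff2 at day 0) and 0.375% to 11.9% in E14. The 11.9%, in the diff3 library of day 0, rests on 1 count.

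Col2a1, the collagen of cartilage and notochord, was at 14.2 and 5.47 CPM at day 0, 34.3 and 15.8 at day 4, 126 and 86.5 at day 10, 90.01 and 90.5 at days 19 to 23, and 93.1 and 80.5 at days 27 to 30 in PGK. E14 levels of Col2a1 were 1.79 and 0.296 CPM at day 0, 15.1 and 5.94 at day 4, 105 and 22 at day 10, 85.3 and 159 at days 19 to 23, and 60.9 and 189 at days 27 to 30. Every library from day 10 on was above 20 CPM and every E14 day 0 library under 2 CPM. Col2a1 rose 8.44-fold by days 27 to 30 in PGK (log2 change 3.08 ± 0.48, edgeR adjusted p = 0.00139) and 94.7-fold in E14 (6.57 ± 1.04, adjusted p = 0.0031). Its earlier steps in PGK did not pass (0.0902 to day 4 and 0.0608 from day 4 to day 10), and both passed with the replicate block (0.0212 and 0.00878). Col11a1, the partner of Col2a1 in cartilage fibrils, was at 1.57 and 2.07 CPM at day 0 and 20.7 and 38 at days 27 to 30 in E14 and rose 16.3-fold (4.03 ± 0.69, adjusted p = 0.00468, 0.0542 without the diff3 day 30 library). In PGK it was at 4.38 and 9.91 CPM at day 0, 0.351 and 2.01 at day 4 and 9.47 and 15.7 at days 27 to 30, with no call at day 4 (0.0537, and 0.0191 with the replicate block). Col11a2 rose in both lines by days 27 to 30 (0.0266 and 0.029) to at most 3.83 CPM at that stage. The PGK call was lost without the diff3 day 0 or diff3 late library (0.121 and 0.0617) and the E14 call without the diff2 or diff3 late library (0.131 and 0.134). Col27a1, a fibrillar collagen of growing cartilage, rose 4.45-fold by day 4 in PGK, from 2.76 and 1.68 to 11.1 and 9.5 CPM (adjusted p = 0.0236), no longer called without the diff2 day 4 (0.0845), diff3 day 0 (0.0865) or diff3 day 4 library (0.0737). Col5a3 and Col24a1 stayed at or under 1.3 CPM.

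Of the 6 beaded filament genes, the type VI chains Col6a1, Col6a2 and Col6a3, which form fine filaments around cells, had 0 counts at day 0 in PGK. At days 27 to 30 Col6a1 was at 12.3 and 1.84 CPM, Col6a2 at 5.74 and 2.12 CPM and Col6a3 at 4.9 and 4.01 CPM. All 3 rose, at least 79.5-fold, 44.2-fold and 50.1-fold (edgeR adjusted p = 0.00526, 0.00404 and 0.00606). Col6a2 alone had already risen by day 4 in PGK, at least 6.21-fold (0.0312), a call lost without any one of the 4 libraries (0.0537 to 0.112). In E14 Col6a2 rose by days 27 to 30 from 0 counts to 3.03 and 6.51 CPM (adjusted p = 0.0138, 0.05 and 0.079 without the diff2 or diff3 late library). Col6a4 and Col6a5 were highest at day 4 in PGK, at 1.82 and 2.01 CPM for Col6a4 and 4.7 and 2.56 CPM for Col6a5.

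Among collagens that decorate fibrils, Col12a1 was at 0.0812 and 0.0935 CPM at day 0 and 13.8 and 10.1 at days 27 to 30 in PGK, and at 0.0746 and 0 CPM, then 5.29 and 24.4 CPM, in E14. It rose in both (edgeR adjusted p = 0.000931 and 0.0202), the E14 call being lost without the diff3 day 30 library (0.114). It also rose by day 4 in PGK, to 0.491 and 2.97 CPM (0.0169), a call lost without either day 0 library (0.0634 and 0.0708) or the diff3 day 4 library (0.164). Col16a1 rose by days 27 to 30 in both lines (0.0427 and 0.0286) to at most 5.28 CPM at that stage, and Col9a3, a cartilage collagen, rose in PGK from 1.62 and 0.514 to 12.3 and 31.6 CPM (0.00539). The Col16a1 calls were lost in PGK without the diff3 day 0 (0.0934) or diff3 late library (0.137), and in E14 without the diff2 (0.0814) or diff3 late library (0.133). The exons of Col9a3 overlap those of Tcfl5 on the opposite strand by 234 bases, 6.07% of its length. Col16a1 had also risen in E14 by day 4, at least 11.96-fold (0.0465), and lost that call without any one library (0.0507 to 0.164) and with the replicate block (0.0722).

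Col20a1 went the other way. It was at 8.28 and 2.67 CPM at day 0 and 0.126 and 0 at days 27 to 30 in PGK (edgeR adjusted p = 0.0312, 0.14 and 0.118 without the diff2 day 0 or diff3 late library). In E14 it went from 16.9 and 7.7 CPM at day 0 to 0.368 and 0 at day 4, a fall of 44.3-fold (log2 change −5.47 ± 1.36, adjusted p = 0.0307) that was lost without either day 4 library (0.0995 and 0.158). Col17a1, the transmembrane collagen of hemidesmosomes, was at 7.79 and 3.18 CPM at day 0 in PGK and 0.251 and 0 at days 27 to 30 (adjusted p = 0.0549, and 0.046 with the replicate block). Col23a1, also transmembrane, rose by days 27 to 30 in both lines (0.00306 and 0.0367), from 0.162 and 0.327 to 13.2 and 7.78 CPM in PGK and from 0.746 and 0 to 22.6 and 6.15 CPM in E14. The E14 call was lost without either late library (0.249 and 0.0715). Col25a1, known from the nervous system, rose in E14 from 0 counts at day 0 to 1.15 and 2.28 CPM (0.0499), a call lost without any one library (0.0696 to 0.196) and with the replicate block (0.0724).

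To set basement membrane against fibrillar members, CPM per kb of exon were summed over the 11 laminin genes, the 6 type IV collagens and the 11 fibrillar collagens. The laminin sum was 197 and 217 at day 0, 166 and 104 at day 4, 177 and 134 at day 10, 140.2 and 116 at days 19 to 23, and 159.5 and 151 at days 27 to 30 in PGK. In E14 it was 227 and 273 at day 0, 146 and 96.5 at day 4, 307 and 108 at day 10, 216 and 190.1 at days 19 to 23, and 171 and 174 at days 27 to 30. Laminins were the largest of the 3 sums in every library, and in PGK both day 0 libraries were above all later ones. The type IV sum was 5.15 and 0.666 at day 0, 11.4 and 13.5 at day 4, 53.9 and 76.2 at day 10, 77.7 and 62.1 at days 19 to 23, and 55.8 and 68.4 at days 27 to 30 in PGK. In E14 it was 1.58 and 1.61 at day 0, 15.2 and 8.38 at day 4, 35 and 20.0 at day 10, 51.9 and 50.8 at days 19 to 23, and 26.6 and 41.5 at days 27 to 30. The fibrillar sum was 8.7 and 5.77 at day 0, 9.51 and 9.97 at day 4, 42.8 and 37.1 at day 10, 55.9 and 41.9 at days 19 to 23, and 43 and 44.6 at days 27 to 30 in PGK. In E14 it was 2 and 0.26 at day 0, 5.75 and 3.37 at day 4, 41.9 and 20.2 at day 10, 45.2 and 29.8 at days 19 to 23, and 30.4 and 59.8 at days 27 to 30. Within each line, both the type IV and the fibrillar sums were above their day 0 levels in every later library.

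**Figure D5:**
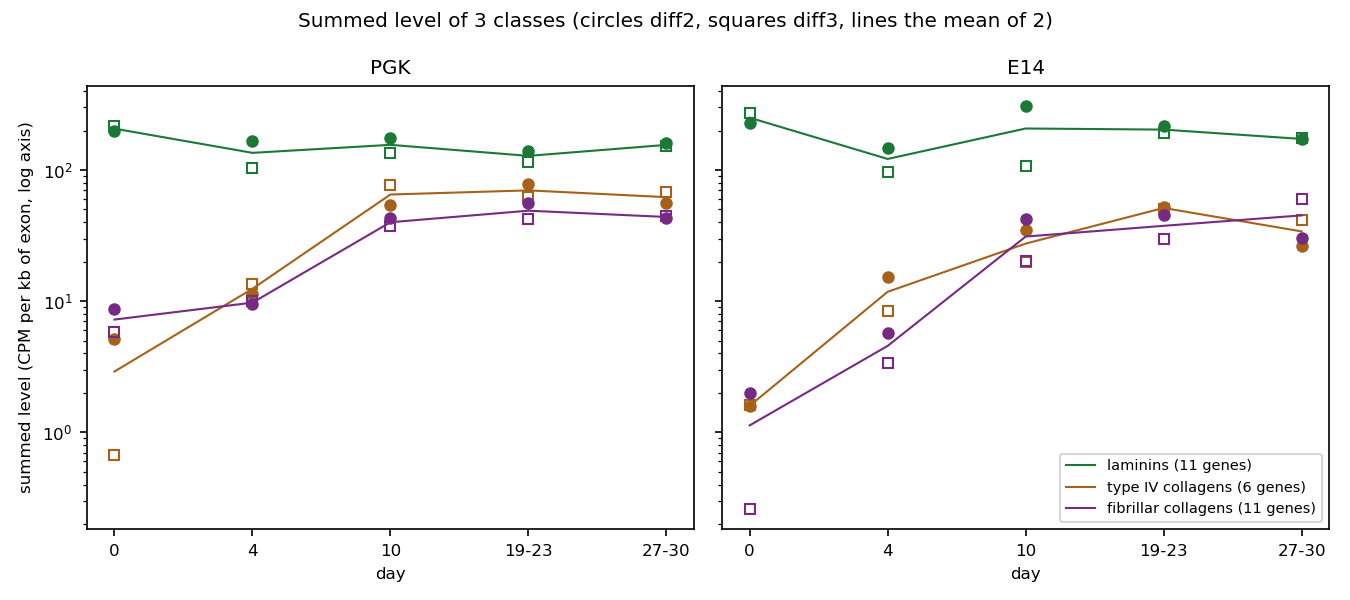
Summed CPM per kb of exon of the laminins (11 genes), type IV collagens (6) and fibrillar collagens (11) by stage in each line, on a log axis, with both experiments shown. The laminin sum stays between 96.5 and 307, while every type IV and fibrillar sum is below 78.

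Per 100 units of basement membrane level (laminins and type IV collagens together), fibrillar collagens stood at 3.48 ± 1.17 at day 0, 6.92 ± 2.19 at day 4, 18.1 ± 0.663 at day 10, 24.6 ± 1.5 at days 19 to 23 and 20.15 ± 0.236 at days 27 to 30 in PGK (SD, n = 2). In E14 the values were 0.484 ± 0.550, 3.39 ± 0.251, 14.1 ± 2.52, 14.6 ± 3.16 and 21.6 ± 8.75 (SD, n = 2). The shallow diff3 E14 library of day 0 had 7 counts of Col11a1 and 1 each of Col2a1, Col5a1 and Col5a2. It had 1 count of Col4a1 and 35 of Col4a2, so its ratios rest on few counts. All libraries from day 10 on were above all of days 0 and 4. Per 100 units of type IV collagen alone, fibrillar collagens were at 169 and 867 at day 0, 83.7 and 73.9 at day 4 and 77.2 and 65.3 at days 27 to 30 in PGK, and at 126 and 16.2, then 37.9 and 40.2, then 114 and 144, in E14. In PGK the ratio to type IV collagen was thus highest at day 0, where the type IV level was lowest. With the longest transcript as length, the PGK value at days 27 to 30 was 25.2 per 100 of basement membrane in place of 20.15. By counts of genes, 6 of 17 type IV and laminin members rose and 3 fell by days 27 to 30 in PGK (median 0.94), and 6 of 14 rose and 1 fell in E14 (median 2.54). The fibrillar counts were 6 of 11 and 6 of 10 with none lower. Of all genes, 13% rose and 12% fell over this interval in PGK, and 8.73% and 4.99% in E14. At day 4 the basement membrane members had 2 that rose and 3 that fell in PGK (median 0.51) and 4 that rose and 3 that fell in E14 (median 0.11), where 8.35% and 6.44% of all genes did in PGK and 5.16% and 4.4% in E14.

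The lines were compared in 1 fit of all 20 libraries, in which 50 members were tested. At day 0 edgeR called 0 members, among 0.509% of all 15732 genes. An unadjusted p below 0.05 was found for 7 members, against 12.27% of all genes. DESeq2 called 4 (Col2a1, Col5a1, Col5a2 and Lamb1), against 370 higher and 330 lower over all genes. Without the diff2 E14 library of day 0, edgeR called 6, and with the library code as a term it called Col2a1 (0.0193). Col5a2 was higher in PGK by 4.23 ± 1.23 on the log2 scale (edgeR adjusted p = 0.147), Col2a1 by 2.94 ± 0.84 (0.14) and Col5a1 by 2.38 ± 0.75 (0.19), none of which passed in edgeR. At days 27 to 30 edgeR called 0 members, among 0.0572% of all genes, and DESeq2 called 0. At that stage 2 members had an unadjusted p below 0.05, against 2.447% of all genes. Col5a2 differed there by 3.40 ± 1.05 (adjusted p = 1). The change from day 0 to day 4 differed between the lines for 0 members in edgeR, among 0.0763% of all genes. For this change 4 members had an unadjusted p below 0.05, against 7.405% of all genes. DESeq2 called 1 (Col11a1, 0.0424), against 121 higher and 83 lower over all genes. Col11a1 had a change in PGK minus that in E14 of −3.43 ± 1.06 on the log2 scale (edgeR adjusted p = 0.372). The change from day 0 to days 27 to 30 differed for 0 members in edgeR, among 0.0509% of all genes, and for 0 in DESeq2. An unadjusted p below 0.05 was found there for 5 members, against 6.395% of all genes. Leaving out the diff2 E14 library of day 0 gave 2 and 3 calls in these 2 tests of differences. The edgeR fit with all 20 libraries thus called no member in these 4 tests, whereas DESeq2 called 5 in all. With 2 libraries a group, a missed threshold does not show that the lines act alike.

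Genes that work with these chains were counted from lists. Of 17 tested other basement membrane components, 5 rose and 2 fell by days 27 to 30 in PGK and 4 rose and 2 fell in E14 (median −0.15 and 1.77). For these and the lists that follow, the share of all genes called over the same interval was 13% higher and 12% lower in PGK and 8.73% higher and 4.99% lower in E14. Nid1, the nidogen that links laminin to type IV collagen, fell in both lines (log2 change −4.76 ± 0.34 in PGK and −4.48 ± 0.54 in E14, edgeR adjusted p = 2.47e-05 and 0.000769). Pxdn, the peroxidase that crosslinks type IV collagen, rose in both (6.43 ± 0.55 and 7.23 ± 0.66, adjusted p = 5.63e-05 and 0.000227). Frem1, a matrix protein below epithelia, rose as well (0.00019 and 0.00118). Of the genes that modify and fold collagen chains, 6 of 18 rose and 4 fell in PGK and 4 of 17 rose and 2 fell in E14 (median 0.42 and 1.05). Fkbp10, a folding enzyme of procollagen, rose by 4.40 ± 0.32 in PGK and 4.51 ± 0.91 in E14 (2.85e-05 and 0.00984). Serpinh1, the collagen chaperone Hsp47, rose in both (0.002 and 0.000227), and Crtap, a partner in proline modification, fell in both (0.000649 and 0.0123). The moved members thus went in both directions.

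Of 12 processing and crosslinking genes, 3 rose and 2 fell in PGK and 4 rose and 1 fell in E14 (median 1.70 and 3.53). Bmp1, which trims procollagen ends, and Loxl2, a crosslinking oxidase, rose in both lines (edgeR adjusted p = 0.00208 and 0.000347 in PGK), and Pcolce, an enhancer of Bmp1, fell in both (0.0232 and 0.00254). Of 13 tested receptors, 4 rose and 1 fell in PGK and 5 rose in E14 (median 0.90 and 0.07). Ddr1, a receptor tyrosine kinase for collagen, rose by 3.80 ± 0.39 in PGK and 3.86 ± 0.48 in E14 (0.000146 and 0.00082), and Itgb1, the shared integrin chain for both ligands, rose by 1.24 and 1.76 (0.00505 and 0.0175). Among other matrix genes, 10 of 18 rose and 3 fell in PGK and 8 of 15 rose and 2 fell in E14 (median 4.32 and 5.06). Thbs1, a thrombospondin, rose and Spp1, osteopontin, fell in both (adjusted p = 0.000706 and 0.00021 in PGK, 0.00271 and 0.00118 in E14). Of 15 matrix proteases and inhibitors, 9 rose and 1 fell in PGK and 7 rose and 1 fell in E14 (median 3.32 and 4.35). Mmp14, a membrane collagenase, rose by 4.49 ± 0.42 and 4.77 ± 0.92 (8.88e-05 and 0.00786), and the inhibitor Timp1 fell in both (0.000171 and 0.00609). The medians over all genes tested were −0.06 in PGK and 0.19 in E14.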

How the data were processed

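Stranded mRNA libraries of PGK and E14 cells were counted by the authors, who deposited raw counts per gene symbol in 1 table per line. Per the submitters' processing notes, CASAVA 1.8.2, Cuffdiff and DESeq2 were used with GRCm38 (mm10). Which aligner and gene annotation were used, and whether counting used strand, is not given in the sources used here, so reads of overlapping genes may be shared. The deposited normalized and variance-stabilized tables were not used. The tables hold 23361 entries, of which 27 have names turned into dates and 4 are repeated names. CPM were computed as counts over the library total, and divided by merged exon length (GENCODE release M21, that is 21) where genes are compared. Promoter windows came from RefSeq.

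Differences were tested with edgeR 4.0.16 (quasi-likelihood, robust, TMM, filterByExpr with a minimum count of 10; limma 3.58.1, R 4.3.3), in 1 fit per line, or of all 20 libraries between lines, with Benjamini-Hochberg adjustment over all genes tested and a threshold of 0.05. The test was checked on simulated data. One member is counted in the totals and not reported by name here. Any other member may be named. Of called members, a fold change with its SE is given for at most the 10 with the smallest adjusted p per comparison. Outside this rule, it is also given for members that were not called. These are Col1a1, Col1a2 and Col3a1 from day 10 on in PGK, and Col5a2, Col2a1, Col5a1 and Col11a1 between lines. Every library's value is given for Col4a1, Col4a2, Lama1, Lama5, Lamb1, Lamc1, Col1a1, Col1a2, Col3a1, Col5a1 and Col5a2. Of other lists, up to 4 genes with the smallest adjusted p are given. Other members with library values were chosen after these were seen. In all 23 lists held 213 genes, of which 1 (Lamb4) had no entry. The members and lists were chosen with earlier results of these data known. Alternatives were RLE size factors, no filter, DESeq2 1.42.0, a replicate block, a term for the library code in the titles, a joint fit, each library left out, another exon length, and 2 chosen after seeing the data, leaving out the shallow or the coded libraries.

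Replicate numbers pair libraries of one differentiation experiment, per the labels. Deviations of same-numbered libraries from their group means correlated across genes at 0.39 to 0.46 in PGK and 0.15 to 0.23 in E14 among days 0, 4 and 10, and at −0.23 to 0.10 with or between later stages. Depth sets a floor of 3 counts; these floors cover counting error only.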

Additional observations from a re-analysis of the deposited data

How the results depend on the processing

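Fold changes were refitted for at most the 10 called members with the smallest adjusted p per comparison, and not for the other calls. No direction reversed among them under any alternative that was run. Of these 504 refits, 442 stayed on their side of the threshold and 62 lost it. Over all 72 calls, the fit without the filter kept 68 and the joint fit kept 61. Of 135 recomputed counts of members called, 106 stayed within 1.5 times the main count. DESeq2 kept all 72 calls and gave 22 instead of 12 from day 0 to day 4, 12 instead of 4 from day 4 to day 10 and 3 instead of 0 from day 10 on in PGK, 17 instead of 10, 11 instead of 0 and 1 instead of 0 in E14, 4 instead of 0 between lines at day 0, and 1 instead of 0 for the difference in the day 4 change. Over all genes DESeq2 also called more than edgeR in each of these comparisons. From day 4 to day 10 in PGK the count of 4 was 8 without the filter on low counts, 9 with the library code term, 1 in the joint fit and 12 without the coded libraries. At that step in E14 the count of 0 was 1 with RLE size factors, 1 without the filter, 1 with the replicate block (Col7a1), 1 in the joint fit and 4 without the coded libraries. Without the coded libraries 3 members were called from day 10 on in E14, and without the shallow libraries 6 instead of 10 from day 0 to day 4. The library code term gave 1 call between lines at day 0. The replicate block moved no other count by over 1.5 times, kept 70 of 72 calls and added 9.

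Leaving out 1 library at a time, counts in PGK ran from 9 to 13 (day 0 to 4), 0 to 3 (day 4 to 10), 0 to 0 (day 10 on) and 21 to 26 (day 0 to days 27 to 30), in E14 from 3 to 14, 0 to 1, 0 to 0 and 9 to 26, and between lines from 0 to 6 at day 0, 0 to 0 at days 27 to 30, and 0 to 2 and 0 to 3 for the differences in change. The 0 to 1 in E14 was without the diff3 day 10 library, and all counts above 0 between lines were without the diff2 E14 library of day 0. With the longest transcript as length, fibrillar collagens per 100 of basement membrane were 4.13 in E14 at day 4 and 25.2 in PGK at days 27 to 30, and Lamb1 was 36.7% (day 0), 90.1% (day 4) and 86.9% (days 27 to 30) of beta chains in E14 and 89.1% (day 4) and 86.8% (days 27 to 30) in PGK. The causes were not tested. In the 2 shallow E14 libraries members under about 1 CPM could not be detected reliably.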
